A study of Mus musculus with 26 samples.

Results

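The genes described here are 10 genes known for their burst of transcription at the 2-cell stage of the mouse embryo, and they were followed in single blastomeres of 8-cell embryos. They were chosen by name and not by a rule on their values, though with earlier results of these data known. They are Zscan4a, Zscan4c, Zscan4d, Zscan4f, Tcstv1, Tcstv3, Zfp352, Usp17lc, Gm5662 and Eif1ad8. The gene table held 55487 genes, and 9 of the 10 symbols were paired with an identifier in it. Eif1ad8 was not paired and was not analysed here. RNA and DNA came from the same cells by scRR-seq, in which chromatin is bound to magnetic beads after lysis and the RNA, mostly cytoplasmic, is recovered from the supernatant. The embryos were obtained from oocytes and sperm of C57BL/6 mice, with no treatment or engineered allele, and their blastomeres were separated and picked by hand. RNA values were available for 9 of 13 labelled cells. They were cells 1, 6 and 7 of embryo 1, and cells 2, 3, 5, 6, 7 and 8 of embryo 2. By DNA copy number the study placed embryo 2 cells in S phase and embryo 1 cells outside it, before or after replication, since a uniform profile does not tell these apart.

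RNA levels are given as TPM (transcripts per 1000000), a share of the RNA of a cell scaled for transcript length, so that levels of different genes can be compared. TPM keeps no read depth, and a gene without signal is therefore called listed at 0 rather than absent. Each cell is 1 sample and the cells of an embryo are not replicates of a condition. With 2 embryos no test between them was possible, and SDs give only the spread between cells. No 2-cell embryos were measured, so the values show what remained listed at the 8-cell stage and not by how much it had fallen.

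When the mouse zygote divides, its own genome begins to be transcribed, and a set of genes is switched on for a short time at the 2-cell stage and then shut off. The transcription factor Dux, helped by the chromatin proteins Dppa2 and Dppa4, is a known activator of this program. Zscan4 genes encode nuclear proteins with a SCAN domain and zinc fingers, known for a role at telomeres. The same genes are known to flicker on in a small fraction of mouse embryonic stem cells. Most of them lie in tandem arrays of near-identical copies, and a read that falls in a shared stretch can be given to more than 1 copy.

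The sequences below show how alike the copies are, since this decides how far the value of a single copy can be read. Each is the first 60 bases of a coding region, 5′ to 3′, from GENCODE M21 transcripts on GRCm38, and capitals mark bases that differ from the first sequence of the set. The first Zscan4 sequence lies at chr7:11006556-11006615 on the plus strand. The Zscan4f sequence lies at chr7:11398749-11398808 on the plus strand, and the Zscan4d sequence at chr7:11165289-11165348 on the minus strand.
Zscan4c: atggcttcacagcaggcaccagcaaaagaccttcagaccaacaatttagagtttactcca
Zscan4f: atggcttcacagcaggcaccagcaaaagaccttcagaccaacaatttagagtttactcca
Zscan4d: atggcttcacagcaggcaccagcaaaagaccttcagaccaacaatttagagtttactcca

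The 3 Zscan4 copies did not differ at any of these 60 bases. Over the 1518 coding bases, Zscan4f differed from Zscan4c at 6 positions and Zscan4d differed from it at 35. The stretch of 60 bases within 1 coding exon where Zscan4d and Zscan4c differed most was coding bases 665 to 724, shown next. It lies at chr7:11009140-11009199 (plus strand) in Zscan4c, chr7:11401333-11401392 (plus strand) in Zscan4f and chr7:11162718-11162777 (minus strand) in Zscan4d. Even there Zscan4f and Zscan4c were identical, and Zscan4d differed at 5 bases.
Zscan4c: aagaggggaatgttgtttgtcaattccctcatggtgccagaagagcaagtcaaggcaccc
Zscan4f: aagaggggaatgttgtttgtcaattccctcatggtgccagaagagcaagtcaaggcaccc
Zscan4d: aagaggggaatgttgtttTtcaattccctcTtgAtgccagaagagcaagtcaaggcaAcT

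Tcstv3 and Tcstv1 were easier to tell apart, as the stretch of their coding regions with the most differences shows. It covers coding bases 394 to 453, at chr13:120317960-120318019 (plus strand) in Tcstv3 and chr13:119893642-119893701 (minus strand) in Tcstv1, and 9 of the 60 bases differ.
Tcstv3: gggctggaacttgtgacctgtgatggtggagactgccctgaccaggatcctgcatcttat
Tcstv1: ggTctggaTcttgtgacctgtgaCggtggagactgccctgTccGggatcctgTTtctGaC

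Gm5662 and its relative Gm2016 on the same chromosome, which both resemble the translation initiation factor gene Eif1a, differed at 4 of 432 coding bases. Their least alike stretch, coding bases 217 to 276, differed at 2 bases. It lies at chr12:88271713-88271772 (minus strand) in Gm5662 and chr12:87876801-87876860 (plus strand) in Gm2016.
Gm5662: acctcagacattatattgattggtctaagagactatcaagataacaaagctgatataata
Gm2016: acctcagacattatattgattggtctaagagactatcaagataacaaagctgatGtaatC

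Read sharing was measured over whole transcripts as the percent of 100-base stretches of a gene that also occur in a transcript of another gene. It was 80.6% for Zscan4f, 72.8% for Zscan4c, 39.1% for Zscan4a and 29.6% for Zscan4d. Zscan4f shared 67.5% with Zscan4-ps2 and 62.7% with Zscan4c. For Gm5662 it was 58.4%, of which most was shared with Gm2016 (52.2%). For Usp17lc it was 32.3%, shared with Usp17ld. It was 7.79% for Tcstv3, 3.58% for Tcstv1 and 0.643% for Zfp352, so the values of these 3 genes rest mostly on sequence of their own. For the Zscan4, Usp17l and Eif1a-like genes, the sum over copies is therefore given beside the single copies.

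**Figure D1:**
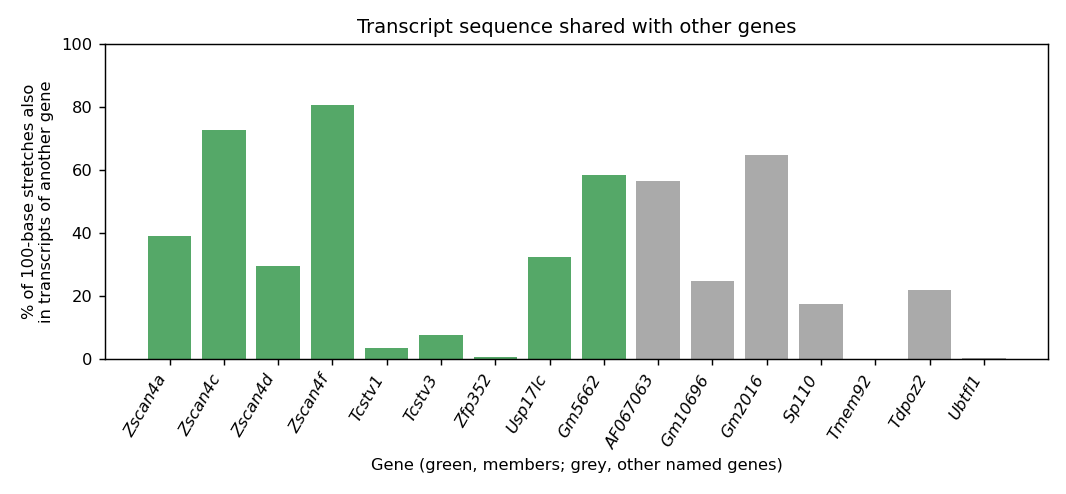
Percent of the 100-base stretches of each gene's transcripts that also occur in a transcript of another gene (vertical axis), for the 9 members (green) and 7 other genes named in the text (grey). Zscan4f (80.6%) and Zscan4c (72.8%) share most of their sequence, while Tcstv1, Tcstv3 and Zfp352 share less than 10%.

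Little RNA of the 2-cell genes was listed at the 8-cell stage, and most of what was listed came from Tcstv3. Of the 81 values of 9 genes in 9 cells, 62 were listed at 0 (76.5%), against 48.6% of the values of all protein-coding genes. Tcstv3 was above 0 in 8 of 9 cells, and Zscan4c and Zfp352 were listed at 0 in every cell. The other 6 genes were above 0 in 1 or 2 cells each. The median of the mean TPM was 0.216 over the 9 members and 0.772 over 21897 protein-coding genes.

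At a threshold of TPM > 1, 5 of the 9 members were detected in at least 1 cell, against 35.8% of all genes and 60.5% of protein-coding genes. In at least 5 cells, only Tcstv3 of the 9 members was detected, against 43.6% of protein-coding genes. Listed at 0 in every cell were 2 of the 9 members, against 29.4% of protein-coding genes. The first and the last of these counts lie near the shares of protein-coding genes, and the count over at least 5 cells is 1 of 9.

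The number of members with TPM > 1 in a cell was 3, 2 and 1 in embryo 1 cells 1, 6 and 7. For embryo 2 the count was 0 in cell 2, 1 in cell 3, 1 in cell 5, 2 in cell 6, 1 in cell 7 and 1 in cell 8. Embryo 1 cell 1 had the most members above 0 (5 of 9), and it also had the most genes of any kind with TPM > 1 (13319, against 11058 to 12978 in the other cells). The part of this wider detection in the count of members was not tested.

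**Figure D2:**
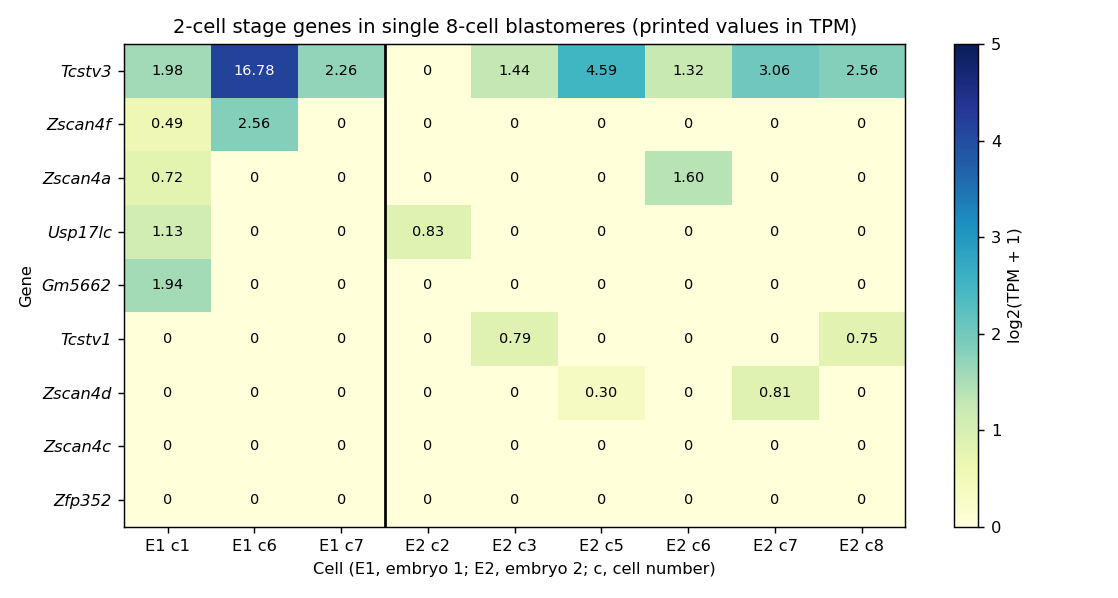
TPM of the 9 members (rows, by falling mean) in each of the 9 cells (columns), with colour giving log2(TPM + 1) and the vertical line parting the embryos. Tcstv3 fills the top row except in embryo 2 cell 2, and Zscan4c and Zfp352 are at 0 in every cell.

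Summed over the 9 members, the RNA of embryo 1 came to 6.26 TPM in cell 1, 19.34 in cell 6 and 2.26 in cell 7. In embryo 2 the sums were 0.83, 2.23, 4.89, 2.92, 3.87 and 3.31 TPM in cells 2, 3, 5, 6, 7 and 8. The cells of the embryos overlapped, and 1 cell, embryo 1 cell 6, stood above all others. The mean was 9.29 ± 8.93 TPM (SD, n = 3 cells) in embryo 1 and 3.01 ± 1.395 TPM (SD, n = 6 cells) in embryo 2. The difference, embryo 2 minus embryo 1, was -6.28 TPM beside a pooled SD between cells of 4.92. Without embryo 1 cell 6 it was -1.25, so that most of the difference rested on this cell. Tcstv3 made up 74.0% of the members' TPM over all cells.

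The cells also fell into 2 technical sets by the number that closes their titles, 11 to 17 (3 cells) and 20 to 25 (6 cells). These sets match the larger and the smaller lysis volume in the study's sample list, of which the smaller was linked by the study to a 3′ bias of coverage. The summed TPM was 3.11 ± 2.82 (SD, n = 3 cells) in the first set and 6.10 ± 6.55 (SD, n = 6 cells) in the second. Within the first set the embryo difference was -4.73 and within the second it was -7.05. No member had values that did not overlap between the embryos, against 0.939% of all genes, and none between the number sets, against 2.11% of all genes. To be counted, a gene must be above 0 in all 3 or all 6 cells of a group. Only Tcstv3 was above 0 in more than 2 cells, so the other members could not have been counted.

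Tcstv3 (ENSMUSG00000095821.2, chr13:120316878-120318178, plus strand) belongs to a cluster of genes named for their variable expression at the 2-cell stage. In embryo 1 its level was 1.98 TPM in cell 1, 16.78 in cell 6 and 2.26 in cell 7. The level in embryo 2 was 0 in cell 2, 1.44 in cell 3, 4.59 in cell 5, 1.32 in cell 6, 3.06 in cell 7 and 2.56 TPM in cell 8. The embryos overlapped, with embryo 1 cell 6 alone above 5 TPM. The mean was 7.01 ± 8.47 TPM (SD, n = 3 cells) in embryo 1 and 2.16 ± 1.60 TPM (SD, n = 6 cells) in embryo 2, and without embryo 1 cell 6 the embryo 1 mean was 2.12 TPM. On the log2(TPM + 1) scale, which understates changes of low genes, embryo 2 minus embryo 1 was -1.005 beside a pooled SD between cells of 1.06. The mean over the 9 cells lay above the mean level of 63.2% of protein-coding genes.

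The Tcstv3 signal moved between 2 annotated transcripts from cell to cell. The transcript of 779 bases alone was listed in embryo 1 cells 1 and 7 and embryo 2 cells 5 and 8. The transcript of 510 bases alone was listed in embryo 2 cells 3, 6 and 7, at 1.44, 1.32 and 3.06 TPM. Only embryo 1 cell 6 had both, with 5.68 TPM of the longer and 11.1 TPM of the shorter. The table does not show how many reads stood behind either transcript.

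**Figure D3:**
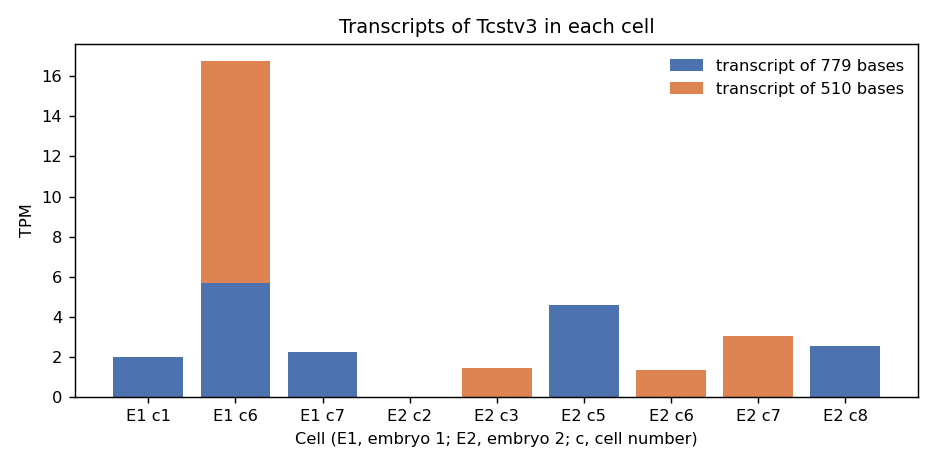
TPM of the 2 transcripts of Tcstv3 (stacked bars, from 0) in each of the 9 cells. The highest bar is embryo 1 cell 6 with 16.78 TPM in all, and in 7 other cells a single transcript holds the whole value.

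Tcstv1 (ENSMUSG00000096284.2, chr13:119893388-119894785, minus strand) lies in the same cluster and had 94.5% identity with Tcstv3 over the aligned coding bases. It was listed at 0.79 TPM in embryo 2 cell 3 and 0.75 TPM in embryo 2 cell 8, and at 0 in the other 7 cells. Both values came from its transcript of 875 bases. The sum of Tcstv1 and Tcstv3 was above 0 in 8 of 9 cells, with a median of 2.26 TPM.

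The Zscan4 genes lie together on chromosome 7. Zscan4f (ENSMUSG00000070828.10, chr7:11397915-11402318, plus strand) was listed at 0.49 TPM in embryo 1 cell 1 and 2.56 TPM in embryo 1 cell 6, and at 0 elsewhere, so both cells with a value were from embryo 1. Zscan4d (ENSMUSG00000090714.10, chr7:11161374-11166159, minus strand) was listed at 0.30 TPM in embryo 2 cell 5 and 0.81 TPM in embryo 2 cell 7, and at 0 elsewhere. Zscan4a (ENSMUSG00000110097.1, chr7:10794242-10799057, minus strand), an unprocessed pseudogene in the annotation used, was listed at 0.72 TPM in embryo 1 cell 1 and 1.60 TPM in embryo 2 cell 6. Zscan4c (ENSMUSG00000054272.6, chr7:11005745-11010547, plus strand) was at 0 throughout, although most of its sequence is shared with Zscan4f.

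Summed over the 9 annotated Zscan4 copies, including 5 that are not members, the family was above 0 in 6 of 9 cells. The sums were 1.21, 2.56 and 0 TPM in embryo 1 cells 1, 6 and 7. They were 1.75, 0, 0.30, 1.60, 0.81 and 0 TPM in embryo 2 cells 2, 3, 5, 6, 7 and 8. In 5 of the 6 cells with signal a single copy held it, and the copy differed between cells. Of the 9 copies, 5 were at 0 in every cell. Zscan4e, the only copy outside the members with a value, gave the 1.75 TPM of embryo 2 cell 2. The mean was 1.26 ± 1.28 TPM (SD, n = 3 cells) in embryo 1 and 0.743 ± 0.781 TPM (SD, n = 6 cells) in embryo 2, a difference smaller than the pooled SD of 0.951.

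Usp17lc (ENSMUSG00000058976.4, chr7:103415072-103419880, plus strand) encodes a deubiquitinating enzyme of a copy-rich family. It was listed at 1.13 TPM in embryo 1 cell 1 and 0.83 TPM in embryo 2 cell 2, and at 0 in the other 7 cells. Over its 5 annotated copies the sum was 3.64 TPM in embryo 1 cell 1, 0.83 in embryo 2 cell 2 and 0.48 in embryo 2 cell 3. These 3 cells are the whole of the set with closing numbers 11 to 17, and all 6 cells of the other set were at 0. Whether the protocol had a part in this was not tested.

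Gm5662 (ENSMUSG00000079029.2, chr12:88270640-88274500, minus strand) was listed in a single cell, embryo 1 cell 1, at 1.94 TPM. Its relative Gm2016, with 99.1% identity over the coding bases, was above 0 in 6 of 9 cells, from 0.88 to 4.71 TPM, but was at 0 in that cell. Over 13 annotated copies on chromosome 12 the sum was 6.95, 3.8 and 7.12 TPM in embryo 1 cells 1, 6 and 7. It was 2.77, 4.15, 10.33, 2.03, 7.87 and 0 TPM in embryo 2 cells 2, 3, 5, 6, 7 and 8. The sum was above 0 in 8 of 9 cells, where Gm5662 on its own was above 0 in 1. Zfp352 (ENSMUSG00000070902.5, chr4:90218820-90225702, plus strand), a zinc finger gene with little sequence shared with other genes, was at 0 in every cell.

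Ordered by mean level over the 9 cells, Tcstv3 (3.78 ± 5.04 TPM, SD over cells) was followed by Zscan4f (0.339 ± 0.849), Zscan4a (0.258 ± 0.557), Usp17lc (0.218 ± 0.439) and Gm5662 (0.216 ± 0.647). Tcstv1 (0.171 ± 0.340) and Zscan4d (0.123 ± 0.276) came next, and Zscan4c and Zfp352 had none. No gene differed from its neighbour in this order by more than the larger of their SDs, which leave out that the genes were measured in the same cells. Cell by cell, Tcstv3 was above Zscan4f in every cell but embryo 2 cell 2, where both were at 0.

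The weight of these low values was gauged from genes with a single transcript of like length (within 10%). In a cell, the 10th percentile of such genes' values above 0 was taken as the lowest value usually seen. For a transcript of 779 bases this was 0.726 to 1.00 TPM, depending on the cell, and for 1829 bases 0.340 to 0.420 TPM. Of the 19 member values above 0, 9 exceeded 3 times that lowest usual value, and 5 of these were Tcstv3. Tcstv3 in embryo 1 cell 6 stood at 16.8 times it, Zscan4f in the same cell at 6.10 times, and Gm5662 in embryo 1 cell 1 at 5.54 times. Both Tcstv1 values, at 1.11 and 1.04 times, and the 0.30 TPM of Zscan4d, at 0.968 times, were at the level of the lowest values of the table. The length used for a gene was that of its longest transcript with a value, so Tcstv3 was set against 779 bases in every cell. In embryo 2 cells 3, 6 and 7 its value came from the 510-base transcript alone, and in embryo 1 cell 6 in part. No lowest usual value was computed for that length, so these Tcstv3 ratios and the counts of 9 and 5 may be too high.

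Several other genes of the 2-cell program were listed at far higher levels than the members in the same cells. Of 20 such genes listed by name, 10 had TPM > 1 in at least 5 cells, against 43.6% of protein-coding genes, 5 had it in all 9 and 2 were at 0 in all. Sp110, a nuclear body protein gene, had 342 to 843 TPM with a median of 476. Its values did not overlap between the number sets, with 613.7, 742.09 and 843.03 TPM in the cells numbered 11 to 17. Those numbered 20 to 25 had at most 486.88 TPM. Of all genes, 2.11% parted the number sets in either direction. Tmem92, a membrane protein gene, had 18.2 to 61.05 TPM. Tdpoz2, of a family with TRAF and POZ domains, had 9.20 to 76.8 TPM, and Ubtfl1, related to a factor of ribosomal RNA transcription, had 1.31 to 42.3 TPM. Sp110 shared 17.5% of its 100-base stretches with other genes, Tdpoz2 22.1%, Ubtfl1 0.564% and Tmem92 none. The values of Tdpoz2 did not overlap between the embryos. They were 76.84, 45.62 and 38.90 TPM in the cells of embryo 1 and at most 31.33 TPM in those of embryo 2. Of all genes, 0.939% parted the embryos in either direction. Both shares are over all genes, of which 35.8% had TPM > 1 in at least 1 cell. A gene at 0 in cells of both groups could not be counted. Sp110 and Tdpoz2 also come from a list of 20 genes, so these shares do not tell how unusual their separation is.

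In the Tcstv cluster, too, a relative of the members was high. AF067063, in the Tcstv cluster on chromosome 13, was at 18.2 to 69.5 TPM, with a median of 37.05, and was above every value of the 9 members. It had 83.0% identity with Tcstv3 over aligned coding bases, taken from its transcript of 590 bases. That transcript was listed at 0 in every cell, and the whole value came from the transcript of 885 bases. The only gene with which AF067063 shared 100-base stretches was Gm21731, but 56.5% of its stretches were shared, so its reads may be divided with that gene. Of the other 3 Tcstv relatives, none was above 1 TPM in 5 cells, though AF067061 reached 6.41 TPM in embryo 1 cell 7. Gm10696, on chromosome 3, was listed among Eif1a-like genes and had 2.37 to 23.7 TPM. Its coding sequence was only 48.3% identical to Gm5662 over 391 aligned bases, and 44 of the first 60 coding bases differed. It is therefore not shown to be a relative of a member. Its transcript of 2205 bases held the whole value in 5 cells, and that of 2247 bases, used for the identity, held it in the other 4. The ordinary translation initiation factor genes Eif1a (60.5 to 145 TPM) and Eif1ad (17.9 to 58.2 TPM) were high in every cell.

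**Figure D4:**
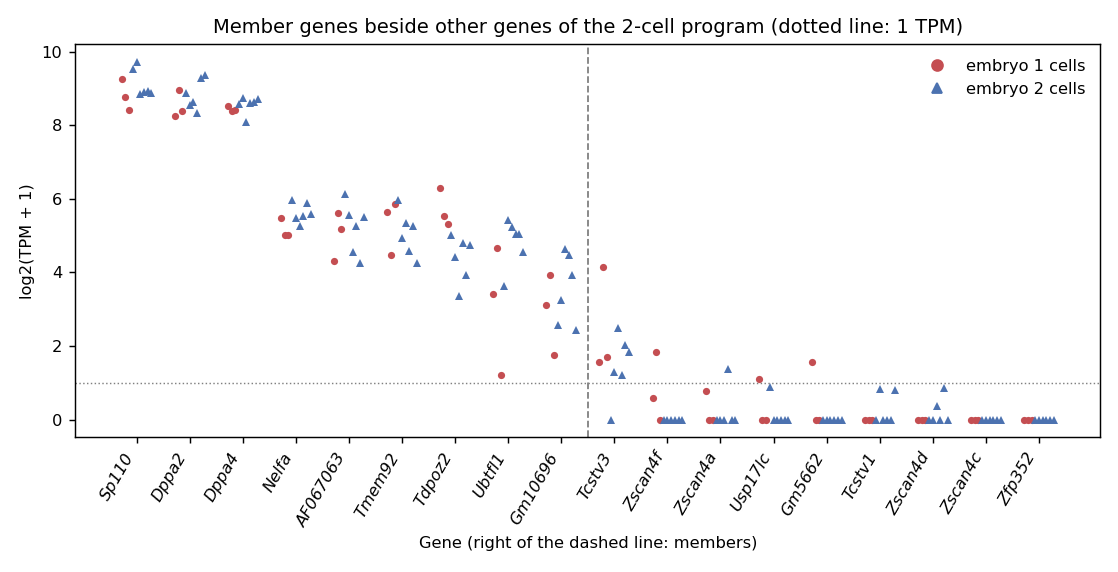
log2(TPM + 1) in single cells for 9 other genes (left of the dashed line) and the 9 members (right), with circles for embryo 1 cells and triangles for embryo 2 cells. The other genes are of the program or its known activators, or were listed as relatives, of which Gm10696 is not shown to be one. The dotted line marks 1 TPM; Sp110, Dppa2 and Dppa4 lie far above it in every cell, and of the members Tcstv3 alone lies mostly above it.

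Regulators of the program were present. The activators Dppa2 (304 to 654 TPM), Dppa4 (269 to 428 TPM) and Nelfa (31.2 to 62.0 TPM), a subunit of a complex that pauses RNA polymerase, were above 1 TPM in every cell. Duxf3, the Dux gene of the annotation, was listed at 2.16 TPM in embryo 1 cell 1 and at 0 in the other 8 cells. All 11 listed repressors were above 1 TPM in every cell. They included Trim28 (433 to 1309 TPM), a corepressor of transposable elements, the nucleolar protein gene Ncl (408 to 1315 TPM), Rif1 (57.7 to 259 TPM), which acts in replication timing, and the histone methyltransferase gene Ehmt2 (45.0 to 181 TPM).

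The cells carried the RNA of blastomeres. Of 10 markers, 8 were above 1 TPM in at least 5 cells, against 43.6% of protein-coding genes. In every cell 7 were, among them Klf5 (141 to 443 TPM) and Pou5f1 (117 to 346 TPM), while Sox2 stayed at or under 0.60 TPM. Of 10 cumulus and granulosa cell markers, 6 were at 0 in every cell, and their summed level ran up to 1.08 TPM for cells of embryo 1 and up to 6.13 TPM for those of embryo 2. All 6 oocyte markers were above 1 TPM in some cell, against 60.5% of protein-coding genes. Their summed level ran from 41.4 to 49.5 TPM for cells of embryo 1 and from 17.9 to 60.5 TPM for those of embryo 2. Sperm markers summed to at most 1.62 TPM. The part of RNA kept from the oocyte in the members' values was not tested.

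The 5 genes whose level across the 9 cells was most like that of Tcstv3, among 8781 genes with a mean TPM above 5, were Lamp2 (r = 0.92), Agfg1 (0.92), Ptpn22 (0.92), Hnrnpa1 (0.90) and Pdcd2 (0.89), by Pearson's r of log2(TPM + 1). All 5 had their highest value in embryo 1 cell 6 and their lowest in embryo 2 cell 2, as Tcstv3 did. Without embryo 1 cell 6 the 5 values of r were between 0.72 and 0.88. The cells share embryo and protocol, and the best of many genes are high by selection.

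Replication state was read in the same cells from bins of 40 kb. A state of 1 stands for the higher copy number and is read as replicated in S phase, and -1 as unreplicated. In embryo 1 the profiles were close to uniform, with 0.00385% to 3.54% of bins at state 1, against 62.4% to 80.5% in embryo 2 cells. The bins of the members were at -1 in embryo 1 except that of Usp17lc in cell 1, and since the cells may lie before or after S phase, this state does not show whether the loci were replicated. In cell 1, 1438 of the 1838 bins at state 1 lay on chromosome 7. A copy number gain of part of a chromosome and replication cannot be told apart by this state. No bin in the table overlapped Zscan4f or Gm5662, so their own state was not read, and only Zscan4f had a neighbouring bin.

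In embryo 2, 32 of 41 pairs of gene and cell with a state were replicated, beside 62.4% to 80.5% of all bins in its cells. The bin of Zscan4a was replicated in all 6 cells, as were 48.7% of all bins. The bins of Zscan4c, Zscan4d and Tcstv3 were replicated in 5 cells and unreplicated in cell 6, the cell with the lowest replicated share. Of all bins, 21.3% were replicated in 5 of the 6 cells. The bin of Tcstv1 was replicated in 5 cells and had no data in cell 3. The bin of Usp17lc was replicated in cells 2, 3, 6 and 8. The bin of Zfp352 was replicated in cells 3 and 8 and unreplicated in the other 4, and 18.4% of all bins were replicated in 2 or fewer of the 6 cells.

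In embryo 2, Tcstv3 RNA was listed with its bin in either state. It was at 1.32 TPM in cell 6 with its bin unreplicated, and with its bin replicated it was at 0 in cell 2 and at 1.44 to 4.59 TPM in the other 4 cells. Zfp352 was at 0 in the 2 cells of embryo 2 with its bin replicated and in the 4 with it unreplicated.

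**Figure D5:**
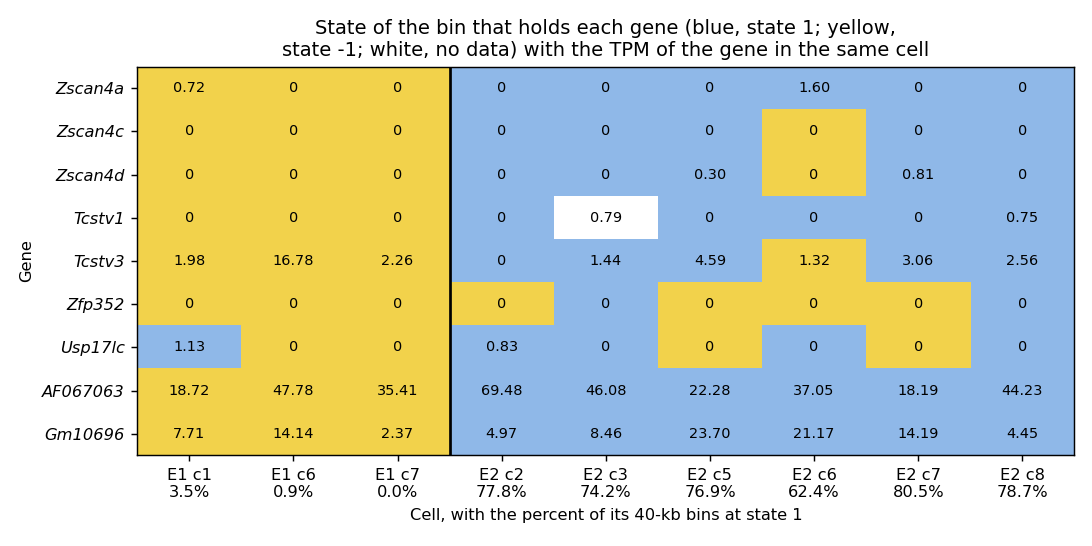
State of the 40-kb bin of 7 members and of AF067063 and Gm10696 (rows) in the 9 cells (columns; the percent of bins at state 1 stands under each), with blue for state 1, yellow for state -1, white for no data, and the TPM of the gene in the same cell printed. Embryo 1 cells, which may lie before or after S phase, are at -1 at all but Usp17lc in cell 1, and in embryo 2 the bin of Zfp352 is at state 1 in 2 cells.

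Promoter windows of 300 bases (250 before to 50 after the start, RefSeq, GRCm38.p6) were at hand for 5 members: Zscan4c, Zscan4d, Zscan4f, Zfp352 and Usp17lc. The motif TATAAA, on either strand, was found in 4 of the 5 and in 13.6% of all 32851 windows. It lay 54, 65, 31 and 88 bases before the start of Zscan4c, Zscan4d, Zscan4f and Usp17lc. GGATTA was found in Zfp352 only, at 9 places in a repeated array, and in 7.06% of all windows. GATTNAATC (the core of the Dux motif, in 0.268% of all windows) and TGCACAC (a Zscan4 motif, in 4.396%) were found in none of the 5. Over aligned bases the Zscan4c and Zscan4f windows were 99.3% identical, Zscan4c and Zscan4d 97.2%, and Zscan4d and Zscan4f 97.4%. The TATAAA matches in these near copies are therefore not separate cases, and 4 of the 5 cannot be weighed against the share of all windows. These are matches of letters in a window and say nothing of binding.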

How the data were processed

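Single blastomeres of mouse 8-cell embryos were profiled by scRR-seq. The authors brought every cell to a similar read number, aligned the RNA reads to mm10 with Hisat and estimated abundance with RSEM against GENCODE M25 in the ramdaq pipeline, and deposited TPM values per gene and per transcript. For the DNA, aligned with BWA 0.7.17-r1188 per the submitters' processing notes, the deposited score per 40-kb bin was 1 (replicated in S phase), -1 (unreplicated in S phase) or 0 (no data), called with AneuFinder. In cells of uniform copy number, as in embryo 1, -1 does not separate cells before from cells after replication. Strand use is not given in the sources used here. Neither kind of value keeps read depth, so no counting interval was computed.

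All 9 RNA headers named the same embryo and cell, and columns were assigned to samples by the closing number of the titles. Each table held 14 columns that belong to no sample of the series and were not used. Symbols were paired with 55141 of 55487 identifiers, and genes were placed with GENCODE M21 (GRCm38, the same build).

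A gene with TPM > 1 was called detected, and log values were log2(TPM + 1). No statistical test between groups was run. Members and gene lists were chosen with earlier results of these data known. Named were all members, and of each other list at most the 4 genes of highest mean TPM among those with TPM > 1 in at least 5 cells, given as examples. Also named were the 5 genes most like the member of highest mean. Other genes named (Duxf3, Zscan4e, Sox2, Chaf1a, Setdb1, copies and relatives of members) were chosen after their values were seen. The lowest usual value by length, and likeness without embryo 1 cell 6, were added after seeing the data. Coding regions were aligned with mafft 7.526. Analyses used Python 3.11.15, numpy 2.4.6 and pandas 2.3.3, and plots matplotlib 3.10.9. Alternatives were another threshold, pseudocount, rescaling without mitochondrial genes, the transcript table, the number sets and leaving out each cell.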

Additional observations from a re-analysis of the deposited data

Results flagged for a closer look

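In embryo 2, with 6 cells, a cell was flagged where its gap to the nearest other cell, divided by the range, exceeded Dixon's limit. Zscan4a was flagged for cell 6 at 1.60 TPM, with the other 5 cells at 0. Usp17lc was flagged for cell 2 at 0.83 TPM, with the other 5 cells at 0. Zscan4d was flagged for cell 7 at 0.81 TPM, with cell 5 at 0.30 and the other 4 at 0, and a gap of 0.630 of the range. A gene listed in a single cell always meets this limit. Chance flags about 1 in 20 groups, and 6 were checked, 5 members with a value in embryo 2 and the sum over members. Embryo 1 has 3 cells and was not checked.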

How the results depend on the processing

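No paired analysis was possible because no test was run, and cells with the same number in the 2 embryos are different cells. At TPM > 5 in place of TPM > 1, the mean number of members detected per cell was 0.111 in place of 1.33, and 6 in place of 10 other 2-cell genes passed in at least 5 cells. The mean summed TPM of members in embryo 2 was 1.53 in the cells numbered 11 to 17 alone, against 3.01 in all. The embryo difference in summed TPM ranged from -9.79 to -1.25 when each cell was left out, and the value nearest to 0 was that without embryo 1 cell 6. The embryo 1 mean ranged from 4.26 to 12.8 and the embryo 2 mean from 2.63 to 3.44. Of 47 alternative values of the main results, 43 moved by less than the spread between cells or by less than 1.5 times. Replicated pairs of gene and cell were 38 of 47 with 1 bin added on each side. The added pairs were those of Zscan4f, whose neighbouring bin was replicated in all 6 cells of embryo 2. No other member changed its state. For single members, 70 of 77 values moved by less than the spread, and with a pseudocount of 0.1 the embryo difference of Zscan4f went from -0.80 to -2.43. Depth limits these results, since a value of 0 may be RNA that was not sampled and the table does not say how many reads stand behind a value.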
